A study of Macaca mulatta with 252 samples.

Results

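The hippocampal fields CA1 and CA3 of the adult rhesus macaque were compared, using the arrays titled for each field and paired by the animal code in the title. There were 8 such arrays of 252 in the series, 4 of CA1 and 4 of CA3, and both fields came from the same 4 animals: male 018G, male CR5C1, female 98C096 and female 99C018. The series profiled neocortical layers, hippocampal fields and the lateral geniculate nucleus on 225 experimental arrays, with 27 control arrays beside them, and 9 of the control arrays, made from CA3 tissue, were left out. The labels name no treatment or genetic change in these adults and give no ages. Each array held RNA from 1 laser-captured piece of tissue, hybridised to a GeneChip Rhesus Macaque Genome array, on which each transcript is read by 1 or more sets of short probes (probe sets). A captured field holds pyramidal neurons together with interneurons, glia and vessels, so fewer cells of a type and less RNA per cell cannot be told apart.

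CA3 and CA1 are successive stations of the hippocampal circuit. CA3 pyramidal neurons receive the mossy fibres of the dentate granule cells and excite one another through recurrent collaterals, and their Schaffer collaterals excite the pyramidal neurons of CA1, which carry the output to the subiculum and cortex. CA1 is known for N-methyl-D-aspartate (NMDA) receptor-dependent long-term potentiation at these synapses and for its loss of neurons after ischaemia, and CA3 for mossy fibre plasticity and seizure activity.

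Values are log2 intensities of 1 probe set per gene, differences are CA1 minus CA3, and errors after ± are standard errors of the fitted difference unless SD is written. A gene was called when limma's adjusted p over all genes tested was under 0.05 and the difference was at least 1 in size. Of 10216 genes tested, 473 were called (4.63%), of which 223 were higher in CA1 (2.18%) and 250 were higher in CA3 (2.45%). Adjusted p alone was passed by 2386 genes (23.4%). The 4 arrays of CA1 did not overlap the 4 of CA3 in 2199 genes (21.5%), and among the called genes this held for 438 of 473. The median difference over all genes tested was 0.00379 and the median size of a difference was 0.177, so most genes lay close to equality. Differences of at least 3 were reached by 14 genes in the direction of CA1 and by 11 in the direction of CA3. In the plot of adjusted p against difference, these form a sparse rim on both sides of a dense centre.

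**Figure D1:**
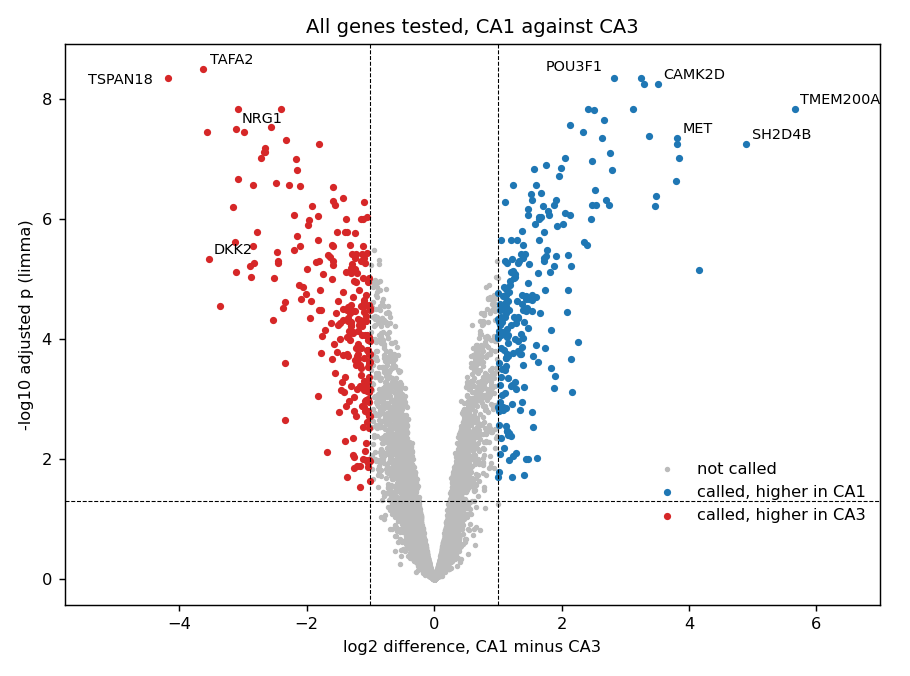
Each point is 1 of the 10216 genes tested, with the log2 difference (CA1 minus CA3) across and -log10 of limma's adjusted p upwards. Dashed lines mark the thresholds, and coloured points are the 223 genes called higher in CA1 and the 250 called higher in CA3, with TMEM200A farthest to the right and TSPAN18 farthest to the left.

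Array medians lay between 4.77 and 4.81 in CA1 and between 4.75 and 4.80 in CA3 and were higher in CA1 in 4 of 4 animals by a mean of 0.023 (exact sign-flip permutation test over 4 animals, two-sided p = 0.125, the smallest that 4 pairs allow). Each array correlated with the mean of the others of its field at 0.992 to 0.994. The log2 level of the poly-A spike controls averaged 9.24 in CA1 and 8.95 in CA3 (p = 0.25 by the same exact test). The signal of the actin 3′ probes over the 5′ probes, which grows as RNA shortens, was 5.02 to 5.88 in CA1 and 5.64 to 5.95 in CA3 and was lower in CA1 in 4 of 4 animals (exact p = 0.125). The same measure for the GAPDH probes averaged 3.63 in CA1 and 3.66 in CA3, a mean difference of -0.02 (p = 0.625 by the same exact test). The part of these control values in the differences below was tested for the poly-A controls alone: with them as a covariate, 468 genes were called.

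The 4 marker genes set the fields apart in every animal. They were named for these fields with results of these data known, so their direction is no independent evidence on the labels. MET encodes the receptor tyrosine kinase for hepatocyte growth factor. Given here and throughout in the order male 018G, male CR5C1, female 98C096, female 99C018, MET read 9.63, 9.77, 9.56 and 9.27 in CA1 and 4.99, 6.60, 6.13 and 5.25 in CA3. The CA1 arrays were tightly grouped, the CA3 arrays were more spread, and the lowest CA1 array lay well above the highest CA3 array. The difference was 3.81 ± 0.23, or 14.1-fold (limma, adjusted p = 4.52e-08). POU3F1, a POU homeodomain transcription factor, read 7.40, 7.56, 7.58 and 7.44 in CA1 and 4.47, 4.62, 4.74 and 4.85 in CA3. All CA1 arrays stood clear of all CA3 arrays, and the CA3 values were close to the array median. The difference was 2.82 ± 0.13 (adjusted p = 4.61e-09).

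TSPAN18 and BOK ran the other way. TSPAN18, a tetraspanin (a membrane-organising protein), read 5.87, 5.57, 4.77 and 5.28 in CA1 and 9.37, 9.80, 9.67 and 9.38 in CA3. It was high in all CA3 arrays and near the array median in CA1, and the difference was -4.18 ± 0.19 (18.2-fold, adjusted p = 4.61e-09), the largest toward CA3 of the genes tested. A second TSPAN18 probe set differed by -1.0, and the mean of both by -2.59. BOK, a member of the BCL2 family of cell death regulators, read 6.22, 6.09, 6.25 and 6.10 in CA1 and 7.48, 7.47, 7.16 and 7.77 in CA3. The fields did not overlap, with a smaller gap than for the other 3 markers (-1.30 ± 0.14, 2.47-fold, adjusted p = 8.09e-06). The second BOK probe set differed by -0.07, and with the mean of both sets BOK was no longer called (-0.69). The 4 dimmer probe sets of MET differed by 0.21 to 1.56, in the same direction as the bright one, and the mean of all 5 sets fell below the filter on dim genes, so that MET rests on 1 probe set. POU3F1 had a single probe set.

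**Figure D2:**
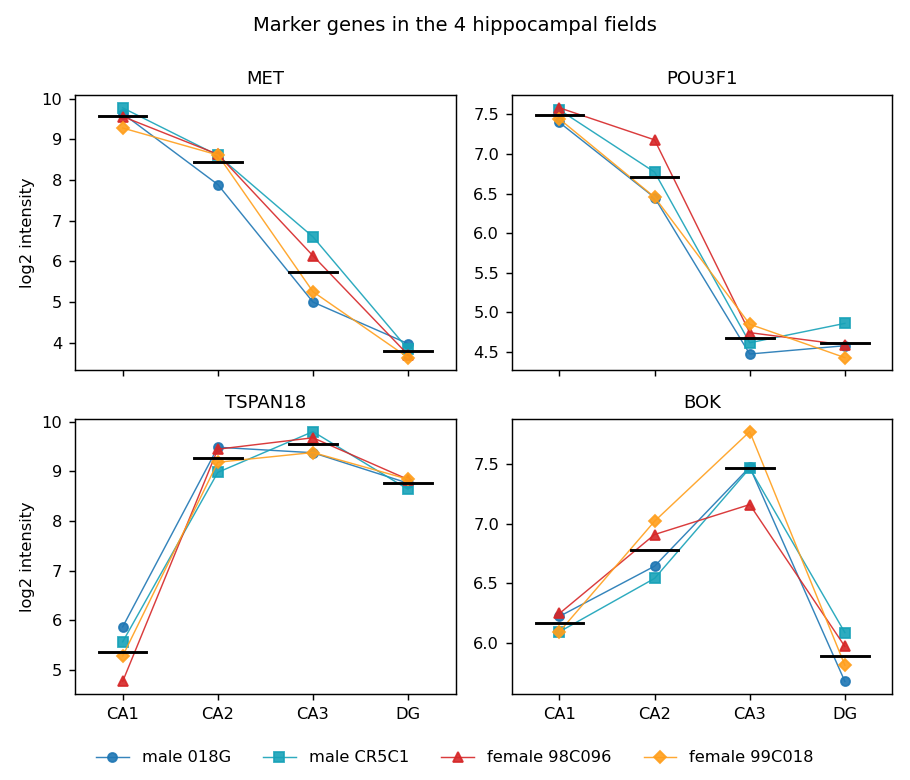
Log2 intensities of MET, POU3F1, TSPAN18 and BOK by hippocampal field (DG, dentate gyrus), with 1 symbol and line per animal and a black bar at the mean of 4 animals. MET and POU3F1 are high in CA1 and low in CA3, TSPAN18 and BOK the reverse, and no CA1 array overlaps a CA3 array in any of the 4 panels.

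Wider marker lists were then counted, here and below against the 4.63% called over all genes. Of 7 tested CA3 pyramidal genes, 6 were called higher in CA3 and none in CA1, with a list median of -1.52. Besides TSPAN18 and BOK, which the list was given, these were CPNE4, a calcium-dependent membrane-binding copine (-2.78 ± 0.25), ELAVL2, a neuronal RNA-binding protein (-2.27 ± 0.17), NRIP3 (-1.52 ± 0.14) and NECTIN3, an adhesion molecule of puncta adherentia junctions (-1.20 ± 0.18). The CPNE4 arrays read 8.47, 8.55, 7.78 and 6.43 in CA1 and 10.68, 10.98, 10.62 and 10.09 in CA3, so that female 99C018 was lowest in both fields. PRKCD, a CA3 marker in rodents, was not called and differed by 0.69 in the direction of CA1. Of 5 tested CA1 genes, MET and POU3F1, which this list was given too, were called, and none of the other 3 was (CCN3 0.37, MAN1A1 0.69, WFS1 -0.03). WFS1, which encodes wolframin and marks rodent CA1, read 9.25 ± 0.25 in CA1 and 9.28 ± 0.22 in CA3 (SD, n = 4). The dentate transcription factor PROX1 read 6.46 in CA1 and 6.51 in CA3 (difference -0.05) against 10.2 in the dentate gyrus. Among the 7 tested dentate granule genes, NPNT (-2.34 ± 0.36) and STXBP6 (-1.43 ± 0.16) were called higher in CA3 and none in CA1. Their means over all probe sets gave -1.12 and -0.52, the latter with no call. In the dentate gyrus NPNT averaged 5.15 and STXBP6 10.8. The summed linear intensity of the 7 genes was 930.8 to 990.8 in CA1 and 1458 to 1681 in CA3. SLC17A7, the vesicular glutamate transporter of excitatory neurons, read 9.39 ± 0.33 in CA1 and 9.55 ± 0.22 in CA3 (SD, n = 4) and was not called.

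Some genes of oligodendrocytes and myelin differed between the fields and are given here because they stand beside the neuronal results. Of 6 tested oligodendrocyte and myelin genes, 3 were called higher in CA3 and none in CA1 (list median -1.26), against 4.63% over all genes. They were MBP, the myelin basic protein, UGT8, which makes the myelin lipid galactosylceramide, and ANLN, an actin-binding protein also found in myelin. MBP read 9.34, 8.78, 10.07 and 9.40 in CA1 and 11.41, 11.65, 11.38 and 11.56 in CA3. All CA3 arrays were above all CA1 arrays (-2.10 ± 0.20, 4.28-fold, adjusted p = 2.86e-06). UGT8 differed by -2.20 ± 0.21, while CNP (-0.25), SOX10 (-0.42) and OLIG2 (0.28), also genes of this lineage, were not called. The summed linear intensity of the 6 genes was 4661 to 6086 in CA1 and 8860 to 9834 in CA3. The other 7 genes of the list were not analysed here. Whether myelinated fibres take part in the differences of other genes higher in CA3 was not tested.

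Other cell types were counted in the same way. Of 8 astrocyte genes 1 was called: the brain aldolase ALDOC (-1.05 ± 0.09, and -0.998 with no call without female 99C018). GFAP, the astrocytic filament protein, differed by -0.96 and passed adjusted p alone, and the summed astrocyte intensity was 13180 to 17340 in CA1 and 18370 to 25390 in CA3. None of 11 microglial, 5 vascular or 3 oligodendrocyte precursor genes was called, where 4.63% were called over all genes, and the microglial genes AIF1 (-0.05) and P2RY12 (0.21) were close to equal. Of 8 genes of inhibitory neurons, PVALB, a calcium buffer of fast-spiking interneurons, and NPY, neuropeptide Y, were called higher in CA3, and LAMP5, a lysosome-associated membrane protein that marks neurogliaform cells, was called higher in CA1. PVALB read 4.89, 5.88, 5.16 and 4.77 in CA1 and 6.92, 7.28, 6.17 and 6.77 in CA3, with no overlap (-1.61 ± 0.25). NPY differed by -1.28 ± 0.32 with arrays that overlapped between the fields, and without female 99C018 it was not called (-1.08, adjusted p = 0.0675). LAMP5 was not called without female 98C096 (0.98 against 1.21 ± 0.16). Its mean was 8.58 in CA1, 7.38 in CA3 and 10.4 in the dentate gyrus, and which cells carried it was not tested. The enzyme GAD1, which makes gamma-aminobutyric acid (GABA), differed by -0.97 and its relative GAD2 by -0.23, and neither was called. GAD1 passed adjusted p alone. In the 8 inhibitory genes, adjusted p alone was passed by 5 toward CA3 and 1 toward CA1, and 7 differences were negative. The summed inhibitory intensity was 1576 to 2330 in CA1 and 1993 to 4753 in CA3.

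**Figure D3:**
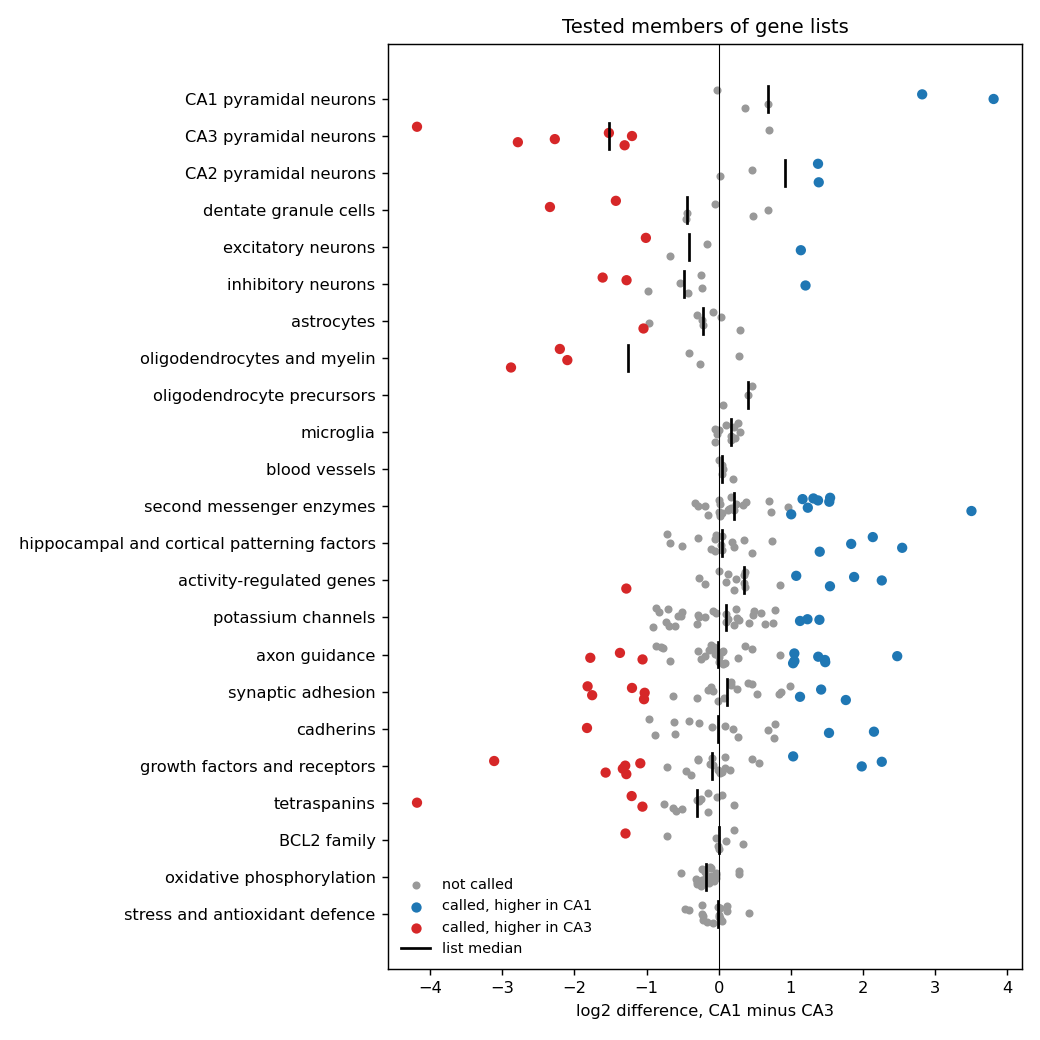
Log2 differences (CA1 minus CA3) of the tested members of 23 gene lists, 1 point per gene, with called genes in colour and the list median as a black bar. CA3 pyramidal and myelin genes lie to the left, called second messenger enzymes all lie to the right, and 21 of 23 genes of oxidative phosphorylation lie slightly to the left of 0 with none called.

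Of the 15 largest differences in each direction, 9 had a mean below the filter level of 4.79 in the lower field. The 6 higher in CA1 were POU3F1, TMEM200A, SH2D4B, TERB1, TCERG1L and PTER, and the 3 higher in CA3 were MGAT4C, FAM241A and UST. These genes were tested only through the field where they were high, and their fold is not firmly measured. TMEM200A, a transmembrane protein, read 9.16, 9.78, 9.02 and 8.82 in CA1 and 3.39, 3.46, 3.81 and 3.47 in CA3. It was bright in every CA1 array and below the array median in every CA3 array, a difference of 5.66 ± 0.30 (adjusted p = 1.5e-08). SH2D4B, an SH2-domain adaptor, read 9.69, 9.91, 8.31 and 10.07 in CA1 and 4.30, 5.03, 4.54 and 4.50 in CA3. Female 98C096 was the lowest of the CA1 arrays and still far above CA3 (4.90 ± 0.31). RASL10A, a Ras-like small GTPase, read 10.72, 10.93, 10.92 and 10.86 in CA1 and 6.79, 6.59, 7.04 and 7.60 in CA3, a difference of 3.85 ± 0.25. CAMK2D, the delta subunit of calcium/calmodulin-dependent kinase II, read 12.25, 12.38, 12.39 and 12.21 in CA1 and 9.29, 8.72, 9.16 and 8.03 in CA3. Its CA1 arrays lay close together and the CA3 arrays varied more (3.51 ± 0.17, 11.4-fold, adjusted p = 5.81e-09), and its other bright probe sets differed by 2.64 and 3.39.

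OLFM3, a secreted olfactomedin-domain glycoprotein, read 8.58, 8.89, 8.996 and 8.85 in CA1 and 5.41, 5.45, 4.96 and 5.62 in CA3 (3.47 ± 0.28), and its second probe set differed by 4.16. PMEPA1, an inhibitor of transforming growth factor beta signalling, differed by 3.38 ± 0.20, with its other probe sets at 1.53 to 3.43. PLXDC2, a plexin-domain membrane protein, differed by 3.48 ± 0.27 and by 2.30 and 3.14 on other probe sets. GALNT1, which starts mucin-type O-glycosylation, differed by 3.25 ± 0.14, and BHLHE40, a basic helix-loop-helix repressor tied to the circadian clock, by 3.12 ± 0.17 (1.92 over both its probe sets). The BHLHE40 arrays read 9.69, 9.96, 9.90 and 9.72 in CA1 and 6.63, 6.86, 6.54 and 6.75 in CA3, each field within a narrow range. TCERG1L differed by 3.80 ± 0.27 and PTER by 2.80 ± 0.19. TERB1, known from meiotic telomeres, differed by 3.81 ± 0.24 on its bright probe set, and its 2 dim ones by -0.33 and -0.16. STARD13, a START-domain protein, differed by 3.29 ± 0.16. Its other probe sets disagreed in direction, at 0.65 and -0.84, so the size rests on the brightest. The mean of all sets differed by 1.04.

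Toward CA3, TSPAN18 was followed by TAFA2. TAFA2, a chemokine-like secreted protein, read 7.27, 7.04, 7.33 and 6.91 in CA1 and 10.72, 10.996, 10.76 and 10.60 in CA3. The 4 animals gave nearly the same step, -3.63 ± 0.15 or 12.4-fold (adjusted p = 3.27e-09). DKK2, a secreted modulator of Wnt signalling, read 6.15, 6.17, 3.96 and 5.26 in CA1 and 9.54, 9.37, 8.77 and 8.01 in CA3. The fields did not overlap although the animals were spread within each (-3.54 ± 0.35, 11.6-fold, adjusted p = 4.68e-06), and the mean over its 2 probe sets was -2.02. NRG1, a growth factor for ErbB receptors, read 4.93, 5.05, 5.79 and 5.01 in CA1 and 8.25, 8.72, 8.12 and 8.14 in CA3. It was near the array median in CA1 and bright in CA3 (-3.11 ± 0.18, 8.66-fold), another NRG1 probe set differed by -0.56, and with the mean of its 4 sets the gene was not called (-0.98). FSTL5, a follistatin-like secreted protein, differed by -3.11 ± 0.33.

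MGAT4C, of a family that branches N-glycans, read 4.54, 3.70, 4.09 and 4.80 in CA1 and 8.10, 7.72, 7.66 and 7.90 in CA3 (-3.56 ± 0.21). TRHDE, the ectoenzyme that degrades thyrotropin-releasing hormone, read 7.86, 8.08, 8.21 and 8.47 in CA1 and 11.28, 11.85, 11.24 and 10.77 in CA3 (-3.13 ± 0.29). UST, a sulphotransferase of chondroitin and dermatan sulphate, differed by -3.08 ± 0.16, CIB2, a calcium- and integrin-binding protein, by -3.09 ± 0.22 and CPNE2, a second copine, by -2.99 ± 0.18. The second CIB2 probe set differed by -2.64. The second UST probe set, below the filter level, differed by 0.20, and the mean of both by -1.44. FAM241A (-3.36 ± 0.40) and VWA5A (-3.16 ± 0.25, and -1.81 over both its probe sets) also belonged to the 15 largest. The remaining members were EVI2A (-2.89 ± 0.30), ANLN (-2.88 ± 0.31, and -1.91 over its 4 probe sets) and SPMIP7 (-2.84 ± 0.27). ANLN read 6.68, 5.80, 7.59 and 5.99 in CA1 and 10.02, 9.50, 9.15 and 8.91 in CA3, and EVI2A read 5.51, 4.98, 5.99 and 5.47 in CA1 and 8.55, 9.05, 8.14 and 7.76 in CA3. In ANLN, EVI2A, SPMIP7 and MBP alike, female 98C096 had the highest CA1 value and male CR5C1 had the lowest, while their CA3 arrays followed no common order.

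**Figure D4:**
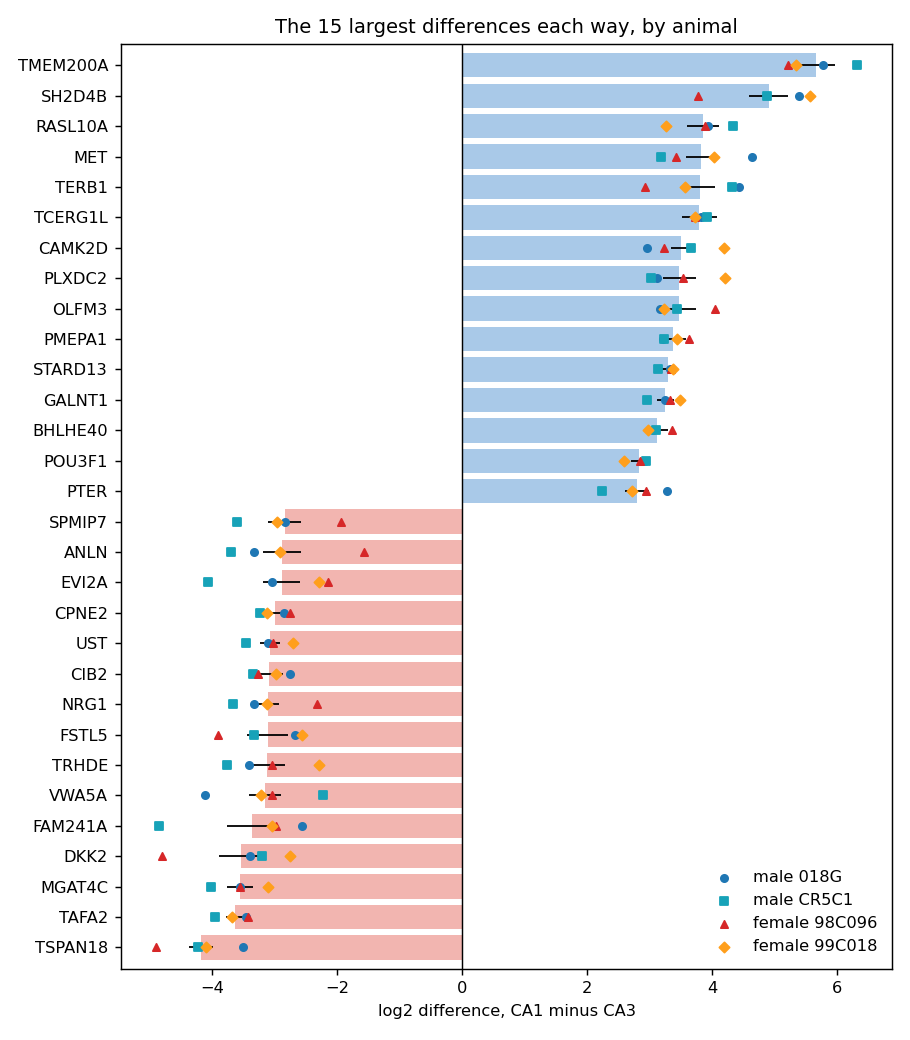
The 15 largest called differences in each direction, genes known by a LOC symbol passed over, as bars of the fitted log2 difference (CA1 minus CA3) with standard errors and 1 symbol per animal. All 4 animals lie on the same side of 0 for all 30 genes, from TMEM200A at 5.66 to TSPAN18 at -4.18.

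The neighbouring fields are given for these genes as a description with no test. The genes were chosen for CA1 and CA3 means far apart, which favours a CA2 mean between them. The share over all genes was not computed, so the counts are no evidence of an order of the fields. The CA2 mean lay between the CA1 and CA3 means in all 15 of the top genes higher in CA1 and in 13 of the 15 higher in CA3. The exceptions were DKK2, with 9.72 ± 0.50 in CA2 and 8.92 ± 0.69 in CA3, and NRG1, with 8.39 ± 0.38 and 8.31 ± 0.28 (SD, n = 4). Their CA2 and CA3 arrays overlapped. TSPAN18 was also high in CA2 (9.27 ± 0.24) and in the dentate gyrus (8.77 ± 0.09), so that CA1 was the low field. MET was 8.43 ± 0.36 in CA2 and 3.78 ± 0.15 in the dentate gyrus, which puts CA3 between them. The dentate gyrus was nearer to CA3 for 9 of the 15 genes higher in CA1 and nearer to CA1 for 11 of the 15 higher in CA3. GALNT1 read 10.1 ± 0.05 in the dentate gyrus and TMEM200A 8.06 ± 0.46, leaving CA3 as the field with the lowest mean for both. SH2D4B was near the array median in CA3 and in the dentate gyrus (4.15 ± 0.13), and its CA2 mean was 5.59 ± 0.79. MGAT4C read 6.86 ± 0.55 in CA2 and 3.92 ± 0.43 in the dentate gyrus.

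**Figure D5:**
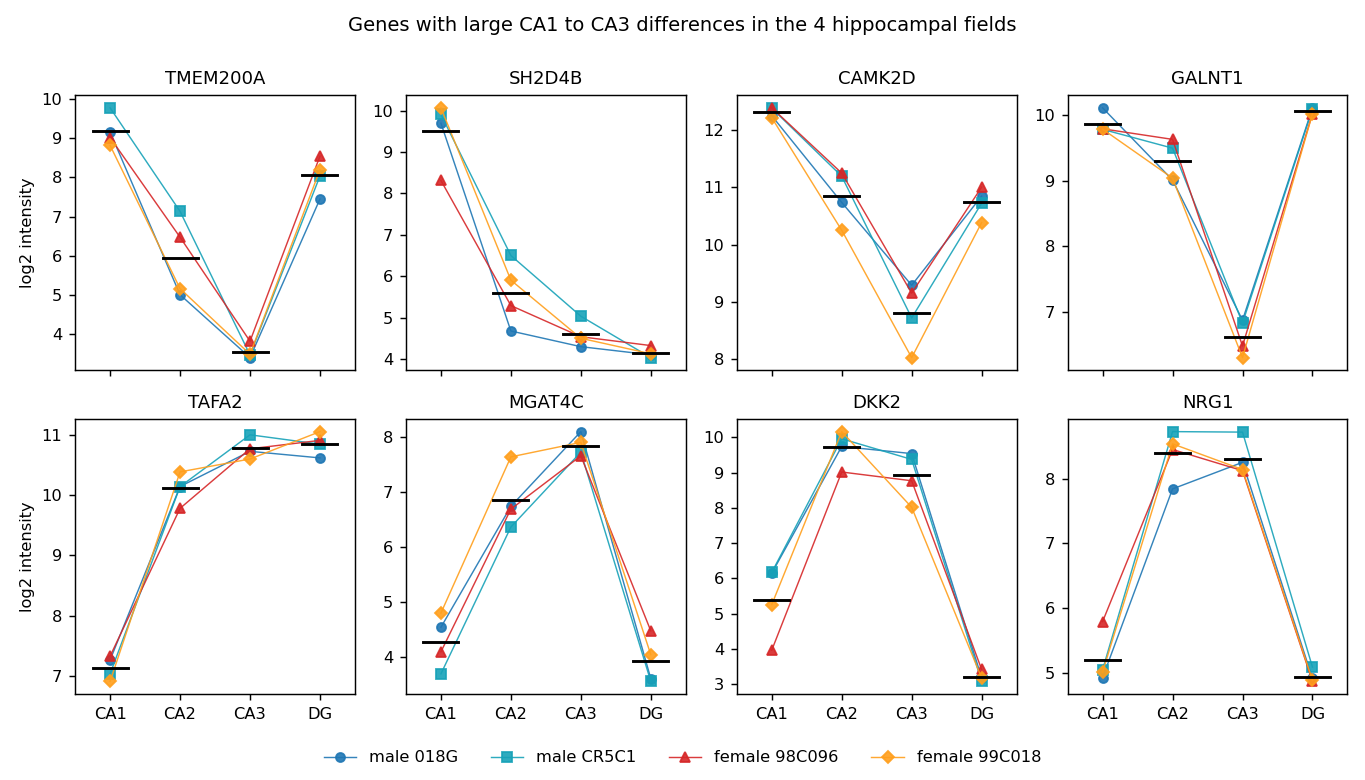
Log2 intensities by hippocampal field (DG, dentate gyrus) of 4 genes higher in CA1 (upper panels) and 4 higher in CA3 (lower panels), with 1 symbol and line per animal and a black bar at the mean of 4 animals. TMEM200A, CAMK2D and GALNT1 dip in CA3, SH2D4B is high in CA1, TAFA2 dips in CA1, and DKK2 and NRG1 are high in CA2 and CA3.

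Among signalling enzymes, which relay calcium and cyclic nucleotide signals, 8 of 29 tested genes were called higher in CA1 and none higher in CA3 (list median 0.21), against 4.63% called over all genes. After CAMK2D these were RGS4 (1.55 ± 0.23), RGS14 (1.38 ± 0.12), RGS20 (1.31 ± 0.19) and RGS2 (1.16), which shorten G protein signals, PRKCB, a protein kinase C (1.53 ± 0.19), ITPKA, an inositol trisphosphate kinase of dendritic spines (1.24 ± 0.13), and the calcium-stimulated adenylyl cyclase ADCY8 (1.01). PRKCB read 12.10, 12.38, 12.03 and 12.29 in CA1 and 10.69, 11.18, 10.10 and 10.68 in CA3, without overlap. RGS14 read 9.35, 9.44, 9.23 and 9.02 in CA1 and 7.64, 8.43, 7.75 and 7.70 in CA3, and its CA2 mean of 9.81 ± 0.16 (SD, n = 4) was the highest of the 4 fields. The other tested kinases of the CAMK2D family were near equality, with CAMK2B at 0.01 and CAMK2G at 0.13. CAMK2A was on the array but below the filter on dim genes, so it was not tested. ITPR1, the inositol trisphosphate receptor, was called at 1.01 ± 0.13 but not without female 98C096 (0.98) or female 99C018 (0.92), and it lost the call under 5 of 12 alternatives in all (0.86 to 1.10).

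The families of the markers were counted against the 4.63% called over all genes. HGF, the ligand of MET, was below the filter on dim genes, with means of 3.85 in CA1 and 3.99 in CA3, and MET was the called one of 6 tested genes of its pathway (list median 0.05). BOK was the called one of 8 tested BCL2 family genes, among which BAX (-0.01), BAK1 (0.01) and BCL2 (0.11) were near 0. Of 15 tetraspanins, TSPAN18, TSPAN6 (-1.21 ± 0.17) and CD9 (-1.06 ± 0.22) were called higher in CA3, and CD9 was not called without male 018G (-0.85). TSPAN6 and CD9 each averaged 4.56 in CA1, below the filter level of 4.79, so they were tested only through CA3. POU3F1 was the called one of 3 POU factors, and POU6F1 (0.85, adjusted p = 0.000178) passed adjusted p alone.

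Transcription factors that pattern hippocampus and cortex gave 4 calls of 20 tested, all higher in CA1 (list median 0.04), against 4.63% over all genes. ETV1, an ETS factor, read 10.19, 10.39, 10.56 and 10.77 in CA1 and 7.96, 8.26, 7.77 and 7.73 in CA3 (2.55 ± 0.20, adjusted p = 5.99e-07), but was not called with the mean of its probe sets (0.96). SOX11 differed by 2.14 ± 0.18 (1.09 over all its probe sets), MEIS2, a TALE homeodomain factor, by 1.84 ± 0.25 and BHLHE22 by 1.40 ± 0.22. In each of these the lowest CA1 array was above the highest CA3 array. TBR1, a T-box factor of glutamatergic neurons, was higher in CA3 (-1.01 ± 0.12) and fell short of the size threshold without male 018G (-0.99) or female 98C096 (-0.94) and under 5 of 12 alternatives in all (-1.06 to -0.78). NRGN, a calmodulin-binding protein of excitatory dendrites, was higher in CA1 (1.14 ± 0.11).

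HTR7, a serotonin receptor coupled to adenylyl cyclase stimulation, read 7.21, 6.47, 6.25 and 6.67 in CA1 and 9.26, 9.30, 9.19 and 9.45 in CA3. It was uniform in CA3 and well below that in CA1 (-2.65 ± 0.17, 6.29-fold), and the mean of its probe sets gave -0.63, short of the threshold. CHRM3, a muscarinic acetylcholine receptor, was also higher in CA3 (-1.31 ± 0.13, and -0.92 over all its probe sets), and the inhibitory serotonin receptor HTR1A was higher in CA1 (1.20 ± 0.21, not called without male CR5C1 at 0.98). These were the 3 calls among 22 neuromodulator receptors (list median 0.00092), against 4.63% called over all genes. GABRA4, a GABA-A receptor subunit, read 8.34, 8.16, 7.74 and 8.06 in CA1 and 6.31, 6.73, 5.48 and 6.28 in CA3 (1.87 ± 0.19), the 1 call among 5 GABA receptor genes. GRIA4, an AMPA receptor subunit, was called higher in CA3 (-1.04 ± 0.27), but not without male 018G (-1.01, adjusted p = 0.0622) or male CR5C1 (-0.76, adjusted p = 0.0819), and it lost the call under 4 of 12 alternatives (-1.28 to -0.61). GRIA1 read 11.5 ± 0.27 in CA1 and 10.7 ± 0.25 in CA3 (SD, n = 4), a difference of 0.76 that passed adjusted p alone.

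Of 33 potassium channel genes, 3 were called, all higher in CA1 (list median 0.10), against 4.63% called over all genes. Adjusted p alone was passed by 10 higher in CA1 and 11 higher in CA3, among them KCNA1 (-0.91) and KCNS3 (-0.87). The called genes were the modifier subunits KCNF1 (1.40 ± 0.17) and KCNG3 (1.23 ± 0.31) and the A-type channel KCND2 (1.13 ± 0.24). The CA3 mean of KCND2 (4.41) was below the filter level of 4.79, so KCND2 was tested only through CA1. KCNF1 kept its call without any 1 animal, whereas KCNG3 lost it without male CR5C1 (0.87, adjusted p = 0.0507) and with the mean of its probe sets (0.58), and KCND2 without male 018G (0.80). Of 17 sodium, calcium and HCN channel genes, the sodium channel SCN3A was higher in CA1 (1.09 ± 0.21) and CACNG2, the AMPA receptor partner stargazin, was higher in CA3 (-1.11 ± 0.09). SCN3A was not called without female 98C096 (0.83) or female 99C018 (0.93), or with the poly-A controls as a covariate (0.99).

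Cell contact and wiring genes were called in both directions. Of 35 axon guidance genes, 7 were called higher in CA1 and 3 in CA3 (list median -0.00483), against 4.63% over all genes. NTNG1, a membrane-anchored netrin, read 7.21, 7.34, 7.50 and 7.14 in CA1 and 4.83, 4.94, 4.51 and 5.00 in CA3 (2.48 ± 0.17, 5.57-fold, and 1.42 over all its probe sets). The ephrin EFNB2 (1.48 ± 0.16), the Eph receptors EPHA5 (1.47 ± 0.20) and EPHA3 (1.05), and NTN4 (1.38 ± 0.26, with arrays that overlapped between the fields) were also higher in CA1. The semaphorin co-receptor NRP1 (-1.78 ± 0.26, and -0.71 over all its probe sets), the Slit receptor ROBO1 (-1.37 ± 0.20) and EPHB1 (-1.06) were higher in CA3. The further calls of the list, EFNA3 (1.03) and PLXND1 (1.05), were higher in CA1.

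Cadherins, which join cells by like-to-like binding, gave 3 calls of 16, against 4.63% called over all genes. CDH22 (2.15 ± 0.22) and CDH18 (1.53 ± 0.18) were higher in CA1. CDH9, a cadherin known from mossy fibre synapses in rodents, read 5.68, 5.11, 5.76 and 5.21 in CA1 and 7.28, 7.08, 7.12 and 7.59 in CA3 (-1.83 ± 0.15). Of 24 synaptic adhesion genes, 3 were higher in CA1 and 5 higher in CA3 (list median 0.12). The presynaptic organiser NRXN3 read 8.67, 7.83, 8.79 and 8.31 in CA1 and 10.31, 10.38, 10.00 and 10.18 in CA3 (-1.82 ± 0.17), and CNTNAP4 (-1.75 ± 0.24) ran the same way. The latrophilin ADGRL2 (1.76 ± 0.17) and LRRTM4, a postsynaptic organiser (1.42 ± 0.14), were higher in CA1, as was CNTN3 (1.13 ± 0.18). ADGRL2 (4.25) and LRRTM4 (4.21) had CA3 means below the filter level of 4.79, so both were tested only through CA1. Of 16 presynaptic genes, SYT17, an atypical synaptotagmin, read 10.81, 10.87, 10.62 and 10.73 in CA1 and 8.21, 8.71, 8.36 and 8.42 in CA3 (2.33 ± 0.14, adjusted p = 3.66e-08), and RIMS3, an active zone protein, was higher in CA3 (-1.40 ± 0.12) but not called with the mean of its probe sets (-0.80).

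Growth factors and their receptors gave 3 calls toward CA1 and 6 toward CA3 of 25 tested (list median -0.09), against 4.63% over all genes. Besides NRG1, the receptor ERBB3 read 5.12, 5.10, 5.16 and 4.59 in CA1 and 7.22, 6.35, 6.53 and 6.14 in CA3 (-1.57 ± 0.22), with a second probe set at 0.08 and no call for the mean of its sets (-0.68). FGF9 (-1.33 ± 0.12), IGF1 (-1.30 ± 0.13, second probe set 0.02, not called with the mean of its sets at -0.84) and IGFBP2 (-1.09) were also higher in CA3. INHBA, the activin subunit, read 7.99, 7.79, 7.60 and 7.82 in CA1 and 6.11, 5.26, 4.61 and 6.17 in CA3 (2.26 ± 0.32), and GFRA2, a neurturin receptor, differed by 1.98 ± 0.14. The receptor kinase TYRO3 was called at 1.03.

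Activity-regulated genes, whose transcription follows neuronal firing, gave 4 calls toward CA1 and 1 toward CA3 of 17 tested (list median 0.35). Over all genes, 4.63% were called. The difference was positive in 14 of the 17, adjusted p alone was passed by 8 toward CA1 and 1 toward CA3, and the summed linear intensity was 11130 to 12000 in CA1 and 7974 to 9092 in CA3. NPTX2, a secreted pentraxin of excitatory synapses, read 11.27, 11.13, 11.22 and 11.17 in CA1 and 9.25, 8.18, 9.50 and 10.35 in CA3 (1.88 ± 0.33), and INHBA, EGR2 (1.54 ± 0.33) and NR4A1 (1.076 ± 0.15) ran the same way. With the mean of their probe sets neither EGR2 (0.88) nor NR4A1 (0.87) was called, and NR4A1 was not called without female 98C096 (0.91) or with the poly-A controls as a covariate (0.88). BDNF, brain-derived neurotrophic factor, read 7.68, 7.44, 8.28 and 7.48 in CA1 and 8.92, 8.83, 8.87 and 9.38 in CA3 (-1.28 ± 0.17), and its mean over all probe sets differed by -0.36, with no call. The immediate early genes FOS (-0.19) and ARC (0.22) were not called.

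Extracellular matrix and cytoskeletal genes followed. Of 23 genes of heparan and chondroitin sulphate matrix, 2 were called higher in CA1 and 3 higher in CA3 (list median -0.05). Over all genes, 4.63% were called. ACAN, the aggrecan core protein of perineuronal nets, read 5.15, 4.51, 5.93 and 4.75 in CA1 and 7.32, 6.88, 6.99 and 7.22 in CA3 (-2.02 ± 0.23), while a second probe set gave 0.45 and the mean of its sets (-0.90) was not called. The heparan sulphate enzymes HS3ST4 (-1.13 ± 0.11) and SULF2 (-1.06 ± 0.12, and no call under 3 of 12 alternatives, among them without male CR5C1 at -0.999) were higher in CA3, and NDST3 (1.73 ± 0.25) was higher in CA1. The link protein HAPLN4 (1.14 ± 0.25) was called higher in CA1 with overlapping arrays, and not without male 018G (0.98). The heavy neurofilament NEFH (-1.59 ± 0.15) was the 1 call among 10 cytoskeletal genes.

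None of 23 genes of oxidative phosphorylation, which make energy in mitochondria, was called, where 4.63% were called over all genes. Their differences were small and mostly toward CA3: 21 of 23 were negative (list median -0.17). Adjusted p alone was passed by 1 gene toward CA1 and 2 toward CA3. The summed linear intensity was 38270 to 41940 in CA1 and 42620 to 45210 in CA3. None of 17 genes of stress and antioxidant defence was called (median -0.01). None of 4 corticosteroid receptor genes was called, although HSD11B1, which regenerates active glucocorticoid, differed by 0.77 ± 0.16. Both tested kainate and delta receptor genes, GRID1 (0.13) and GRIK1 (-0.03), were not called.

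The difference between CA1 and CA3 was also compared between the 2 males and the 2 females. By limma's interaction test, 0 genes were called, with 754 of 10216 at an unadjusted p under 0.05 and a lowest adjusted p of 0.0962. Without the animal as a block, 0 were called and 477 had an unadjusted p under 0.05, with a lowest adjusted p of 0.466. The comparison rests on 2 animals of each sex.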

How the data were processed

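RNA was amplified for the arrays in 2 cycles from 5 ng of total RNA, per the labels' protocols. The authors deposited intensities on the log10 scale. Per the file headers, they ran RMA (robust multi-array averaging) within each of 3 amplification batches and then scaled each probe set on whole brain control RNA common to the batches. The batch of each array is not given in the sources used here, so batch was not tested. RMA shrinks dim signals, so differences against values near the array median can be understated.

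Values were multiplied by the log2 of 10 (the plan had assumed log2 values). Of 52865 probe sets, 24969 carry 1 gene symbol in the platform annotation, 361 several and 27535 none, which gave 14133 genes. The brightest probe set over the experimental arrays stood for each gene, and genes whose mean over the 8 arrays was below the median of all probe sets (4.79) were left out. Of 473 called genes, 174 had another probe set above this level: in 144 all of these ran the same way, and in 30 at least 1 ran the opposite way. The 144 count direction at any size. In 83 of the 174, at least 1 other probe set ran the same way by at least 1. The remaining 299 called genes had no other probe set above this level.

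The 16 arrays of the 4 hippocampal fields were fitted with limma (version 3.58.1, under R 4.3.3, and data.table at version 1.17.8), with animal as a fixed block and Benjamini-Hochberg adjustment, a procedure first tested on simulated data. The animal codes pair the arrays: after removal of field means, arrays of the same animal correlated at a median r of 0.334 (24 pairs) against -0.119 for different animals (72 pairs).

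Named genes are the 4 markers, the 15 largest called differences each way with the same sign in 4 animals (without LOC symbols), and from each gene list the 6 called members with the largest differences, or 2 tested members where none was called. Other genes, named for their role in a list or as its remaining calls, were chosen after their values were seen. The fields, markers and lists were chosen with earlier results of these data known. Alternatives covered the block, arrays fitted, filter, normalization, probe set rule, poly-A controls, threshold and each animal left out.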

Additional observations from a re-analysis of the deposited data

Results flagged for a closer look

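In 13 of 226 groups of 4 arrays (113 named genes in CA1 and in CA3), 1 array stood apart from the other 3 by Dixon's criterion at 95%, and chance alone sets apart about 1 group in 20. The values are log2 intensities. Male 018G stood apart in CA1 for 5 genes. It was high for GALNT1 (10.1147 against 9.79 in the other 3), NDST3 (7.12 against 6.49 to 6.57) and GRIK1 (9.03 against 8.22 to 8.32). It was low for EGR2 (8.01 against 9.08 to 9.29) and NR4A1 (6.17 against 7.06 to 7.20), both activity-regulated transcription factors. In CA3 the same male was high for CD9 (6.17 against 5.39 to 5.51).

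Male CR5C1 stood apart in CA3 for RGS14 (8.43 against 7.64 to 7.75), KCNF1 (7.54 against 8.03 to 8.09) and FKBP5 (5.29 against 4.85 to 4.90). Female 99C018 stood apart in CA1 for CD9 (4.77 against 4.47 to 4.51) and ERBB3 (4.59 against 5.10 to 5.16), and in CA3 for BDNF (9.38 against 8.83 to 8.92). Female 98C096 stood apart in CA1 for NRG1 (5.79 against 4.93 to 5.05). None of these values closed the gap between the fields in the called genes among them, whose CA1 and CA3 arrays did not overlap.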

How the results depend on the processing

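The count of 473 called genes was 456 without the replicate block (arrays not paired by animal), 472 with the 8 CA1 and CA3 arrays alone, 509 with no filter on dim genes, 324 with a filter at the 75th percentile, 465 after quantile normalization, 468 with median-centred arrays, 468 with the poly-A controls as a covariate and 319 with the mean of all probe sets of a gene. Under that last choice 154 genes were higher in CA3, against 250; the cause was not tested. With adjusted p alone, 2386 genes passed, 1032 higher in CA1 and 1354 higher in CA3, which follows from dropping the size threshold. Leaving out 1 animal at a time gave 435 to 489 calls, 200 to 241 higher in CA1 and 211 to 276 higher in CA3. Of 1323 values of named genes, 1278 kept their side of the threshold and 45 lost the call, 19 of them with the mean of all probe sets, under which 5 more genes, MET among them, fell below the filter. No called gene changed sign, whereas GRIK1, not called at -0.03, changed sign after quantile normalization (0.03) and without male CR5C1 (0.05). Of 99 called named genes, 14 lost the call without some 1 animal, and the block changed no call among them. The sex comparison gave 0 calls with no filter too (1020 genes at an unadjusted p under 0.05, lowest adjusted p 0.145). Genes near the array median have little signal over background, so the fold of their differences is not firmly measured.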
